A study of Danio rerio with 16 samples.

Results

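The 8 libraries of 24 hours post fertilisation (hpf) in a series of 16 zebrafish libraries were divided into a side rich in transcripts of yolk-export genes and a side poor in them. The sides were formed from a measured value: within each genotype, the 2 libraries with the highest counts per 1e6 counts (CPM) of apoa1b were called rich and the 2 lowest were called poor. This gave 4 rich libraries (mutant replicates 1 and 3, sibling replicates 2 and 3) and 4 poor libraries (mutant replicates 2 and 4, sibling replicates 1 and 4). The remaining 8 libraries, of 48 hpf, took no part in the choice.

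The libraries came from bulk RNA sequencing of zebrafish embryos and formed 4 groups of 4, namely mut48, sib48, mut24 and sib24. Mutants carried CRISPR/Cas9 knockouts of lipf, which encodes a gastric-type acid lipase, and of pla2g15, which encodes a lysosomal phospholipase. The siblings were wild type, and neither genotype had any other treatment in the labels. The labels call the tissue body, whereas the series text names whole embryos. The sources used here do not give how many embryos entered a library, whether yolk was removed, or whether replicates came from separate clutches. The p-values below therefore reflect no more than the variation among these libraries, which may be technical. The title of the series names yolk lipid mobilisation, Hnf4 and lipoproteins.

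The yolk of a zebrafish embryo is enclosed by the yolk syncytial layer, a multinucleate layer that takes lipid and protein from the yolk and passes them to the embryo before feeding begins. It packs yolk lipid into lipoprotein particles, for which it uses B-type apolipoproteins, the microsomal transfer protein Mttp and smaller exchangeable apolipoproteins. It also makes many plasma proteins that the liver makes later in life. In bulk samples, fewer cells of a type and less RNA per cell cannot be told apart, so a low value of such genes says nothing of which of these applied.

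Between rich and poor libraries, part of the genes of lipoprotein export, plasma proteins, complement, clotting, retinoid carriage and glucose release were set apart. Some of these classes were chosen after the values were seen. In these classes the largest difference among the genes named here was 31.5-fold, in the complement gene masp2. Outside them sod3a reached 47.4-fold. The poor values of both genes rest on few reads. The medians of muscle, neuron, blood and cell cycle genes lay within 0.16 of 0 on the log2 scale. Because apoa1b chose the sides, the whole contrast is given as a description with no test. A gene was counted as set apart where the log2 difference of rich over poor, with genotype as covariate, was at least 1 in either direction and the 4 rich and 4 poor libraries did not overlap.

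apoa1b, which encodes a main protein of high-density lipoprotein, had 661 and 450 CPM of library totals in the rich mutant libraries and 270 and 567 CPM in the rich sibling libraries. The poor mutant libraries had 13.3 and 16.5 CPM, and the poor sibling libraries 63.1 and 26.6 CPM. The libraries just inside and just outside the split were thus at 450 and 16.5 CPM in mutants and at 270 and 63.1 CPM in siblings. A gap separated the sides in both genotypes, and sibling replicate 1 was the poor library nearest to the rich ones. On the scale used from here on, CPM scaled by TMM factors, apoa1b averaged 501 ± 177 in rich libraries and 31.4 ± 24.4 in poor libraries (SD, n = 4 each), an 18.1-fold difference.

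The same 8 libraries would have been split in the same way by its paralog apoa1a and by the mean of the yolk marker list without apoa1b. Of the 21 tested genes of that list, 19 gave the same split when used alone (90.5%), and the exceptions were slc40a1 and hnf4a. The 19 include apoa1b itself, whose split was fixed by the rule, and the list was made of genes like it. Among all 24300 tested genes, 1475 did (6.07%).

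**Figure D1:**
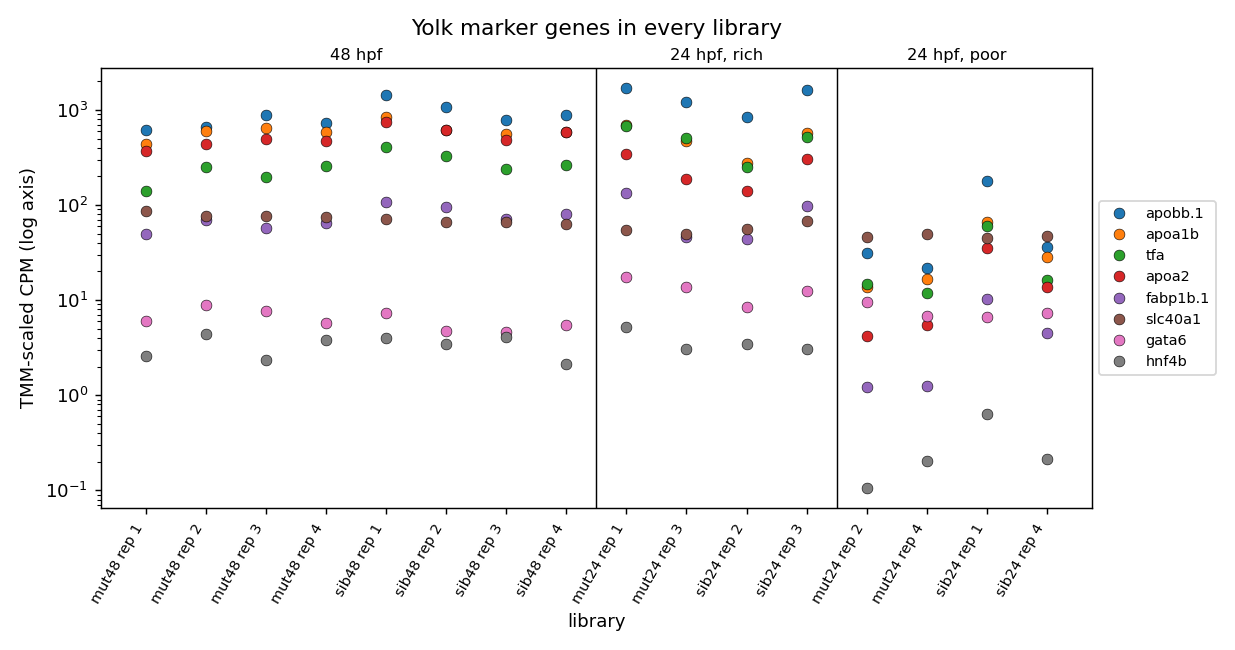
TMM-scaled CPM (vertical log axis) of 8 yolk marker genes in each of the 16 libraries (horizontal axis), 1 point per gene and library, with 48 hpf libraries at the left, rich 24 hpf libraries in the middle and poor 24 hpf libraries at the right. apoa1b lies between 274 and 693 in the rich libraries and between 13.8 and 66.7 in the poor ones, while slc40a1 lies between 45.3 and 67.2 in all 8.

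The yolk marker list held 22 genes of the file, of which 21 passed the filter on low counts and ttr did not. Of the 21, 16 were set apart as higher in rich libraries and 0 as lower, and the median log2 difference over the 21 was 3.94. Over all tested genes 365 (1.5%) were set apart as higher and 59 (0.243%) as lower, and the median log2 difference was -0.01. Without the 2-fold minimum, the sides failed to overlap in 3.2% of genes with the rich side higher and in 1.75% with it lower. Since the list holds apoa1b and genes like it, nothing is read from the count against that background. The summed level of the list was 2750 to 6020 CPM in rich libraries and 369 to 863 CPM in poor libraries.

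Among the structural proteins of the lipoprotein particle, apobb.1, a B-type apolipoprotein that forms its scaffold, had 1714 and 1198 CPM in the rich mutant libraries and 849 and 1604 in the rich sibling libraries, against 31.2 and 21.6 in the poor mutant libraries and 179 and 36.2 in the poor sibling libraries. Its log2 difference was 4.63. apoba, the other B-type gene named in the list, had 254 and 150 CPM in rich mutants and 142 and 331 in rich siblings, against 2.78 and 2.58 in poor mutants and 36.3 and 6.87 in poor siblings. Neither gene overlapped between sides, and in both the highest poor library was sibling replicate 1. The second component of high-density lipoprotein, apoa2, had a log2 difference of 4.39, with 142 to 344 CPM in rich libraries and 4.2 to 35.4 in poor libraries.

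Within the yolk marker list, the exchangeable apolipoproteins of the A4, E and C classes were less uniform. Of 18 tested apolipoprotein genes, a family chosen after the values were seen, 11 were set apart as higher and 0 as lower. They included apoa4a and apoc2, which are outside that list, and nothing is read from the count. apoa4b.1 had 145 and 22.4 CPM in rich mutants and 57.9 and 186 in rich siblings, against 0.734 and 0.645 in poor mutants and 21.1 and 2.71 in poor siblings. Its sides nearly touched, at 22.4 in mutant replicate 3 and 21.1 in sibling replicate 1. In apoa4b.2 and apoea the same pair of libraries overlapped: mutant replicate 3, on the rich side, had 4.9 and 1.64 CPM, and sibling replicate 1, on the poor side, had 12.2 and 10.7 CPM. Both genes overlapped only across genotypes, and within each genotype the rich libraries lay above the poor ones. How reads shared by similar neighbours of this cluster were assigned is not stated in those sources, so the values of single A4 and E genes are uncertain.

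apoeb and apoc1 differed by less. apoeb had 951 and 658 CPM in rich mutants and 395 and 752 in rich siblings, against 153 and 180 in poor mutants and 208 and 150 in poor siblings, a log2 difference of 1.98. apoc1 averaged 304 ± 64.4 CPM in rich libraries and 108 ± 22 in poor libraries (SD, n = 4 each), a log2 difference of 1.52. The sides overlapped in neither gene.

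Genes that load and handle the lipid were set apart as well. mttp, whose product loads lipid on the B-type proteins, had 23.7 and 13.4 CPM in rich mutants and 11 and 22.5 in rich siblings, against 3.88 and 4.13 in poor mutants and 4.93 and 3.83 in poor siblings. The 4 poor libraries lay close together in mttp, sibling replicate 1 included. The list of other lipoprotein genes was chosen with earlier results known, so nothing is read from its count. Its median log2 difference was 0.44. Beside 1.5% and 0.243% of all genes, 12 of its 32 tested genes were set apart as higher and 0 as lower. Among them, pla2g12b, needed for normal lipoprotein secretion, averaged 108 ± 41.2 CPM in rich libraries and 6.07 ± 7.5 in poor libraries, and soat2, a sterol-esterifying enzyme, averaged 4.87 ± 2.6 CPM in rich libraries and 0.173 ± 0.113 in poor libraries. dgat2, which makes triglyceride, had a log2 difference of 4.05 and was chosen after its values were seen. The intracellular fatty acid carrier fabp2 had a log2 difference of 3.72, with 57 to 149 CPM in rich libraries and 2.5 to 22.6 in poor libraries, and fabp1b.1 one of 4.48.

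**Figure D2:**
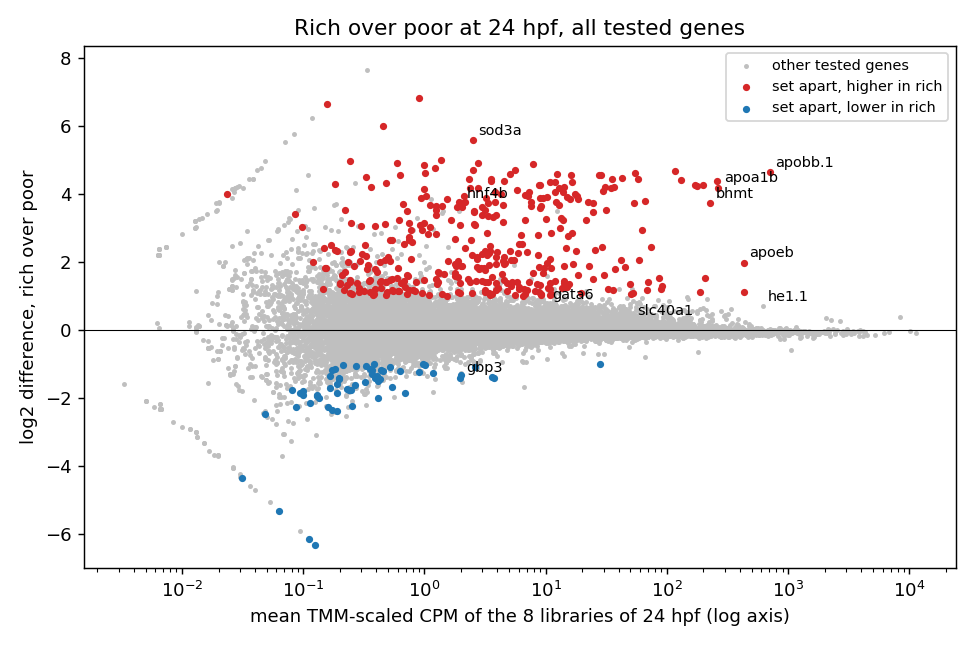
Log2 difference of rich over poor at 24 hpf (vertical axis) against mean TMM-scaled CPM of the 8 libraries (horizontal log axis), 1 point per tested gene, with red for the 365 genes set apart as higher, blue for the 59 set apart as lower and grey for all others. Of the 365 red genes, 81 had under 1 CPM in the rich libraries, and 48 of the 59 blue genes had under 1 CPM in the poor libraries.

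Some carriers of iron and retinoid were set apart. tfa, which encodes transferrin, had 679 and 501 CPM in rich mutants and 251 and 518 in rich siblings, against 14.7 and 11.9 in poor mutants and 59.9 and 16.3 in poor siblings, a log2 difference of 4.38. rbp4, the plasma carrier of retinol, had 38.6 and 28.9 CPM in rich mutants and 15.3 and 32.3 in rich siblings, against 1.73 and 4.03 in poor mutants and 6.07 and 4.31 in poor siblings. No poor library reached a rich one in either gene. Of 8 tested retinol binding protein genes, a family chosen after the values were seen, 4 were set apart as higher. rbp2b, an intracellular retinoid carrier, had a log2 difference of 4.76 but averaged 2.38 ± 1.71 CPM in rich libraries and 0.0865 ± 0.0662 in poor libraries.

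The iron exporter slc40a1 and the transcription factors hnf4a and gata6 were not set apart. slc40a1 had 54.1 and 49.6 CPM in rich mutants and 55.4 and 67.2 in rich siblings, against 45.6 and 49.8 in poor mutants and 45.3 and 46.7 in poor siblings, and the sides overlapped. hnf4a, a nuclear receptor of liver and gut, had 2.12 to 4.36 CPM in rich libraries and 1.32 to 2.5 in poor libraries, and gata6, an endoderm factor, had 8.39 to 17.3 CPM in rich libraries and 6.57 to 9.6 in poor libraries. hnf4a overlapped between sides within siblings. gata6 overlapped only across genotypes: it had 17.3 and 13.6 CPM in rich mutants against 9.6 and 6.79 in poor mutants, and 8.39 and 12.4 in rich siblings against 6.57 and 7.4 in poor siblings. hnf4b, the second Hnf4 paralog of the list, did not overlap: it had 5.27 and 3.05 CPM in rich mutants and 3.42 and 3.07 in rich siblings, against 0.105 and 0.202 in poor mutants and 0.636 and 0.213 in poor siblings. Its log2 difference of 3.72 stood beside 0.78 in hnf4a.

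Of 27 further tested transcription factors of endoderm, liver and yolk syncytial layer, 3 were set apart as higher and 0 as lower. The shares of all genes were 1.5% and 0.243%, and the median log2 difference of the 27 was 0.06. nr0b2a, a corepressor that in mammals answers to bile acids, had 37.5 and 29 CPM in rich mutants and 11.1 and 16.1 in rich siblings, against 2.2 and 1.96 in poor mutants and 3.18 and 3.67 in poor siblings. cebpb, a factor of the C/EBP family, averaged 12.3 ± 3.13 CPM in rich libraries and 5.9 ± 1.14 in poor libraries, and its paralog cebpa, named because it is the third such gene, had a log2 difference of 1.04. In nr0b2a the rich mutant libraries were the highest of the 8 libraries.

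Of 38 tested plasma proteins and secreted enzymes, 25 were set apart as higher and 0 as lower, beside 1.5% and 0.243% of all genes. The list was chosen with earlier results of these data known, so nothing is read from its count against those shares. Its median log2 difference was 3.33. serpind1, which encodes an inhibitor of thrombin, had 6.38 and 6.13 CPM in rich mutants and 3.65 and 5.32 in rich siblings, against 0 and 0.121 in poor mutants and 0.45 and 0.16 in poor siblings. plg, the precursor of the clot-dissolving enzyme plasmin, had 17.3 to 28.5 CPM in rich libraries and 0.577 to 2.28 in poor libraries. The sum of the plasma list was 810 to 1580 CPM in rich libraries and 275 to 353 CPM in poor libraries.

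**Figure D3:**
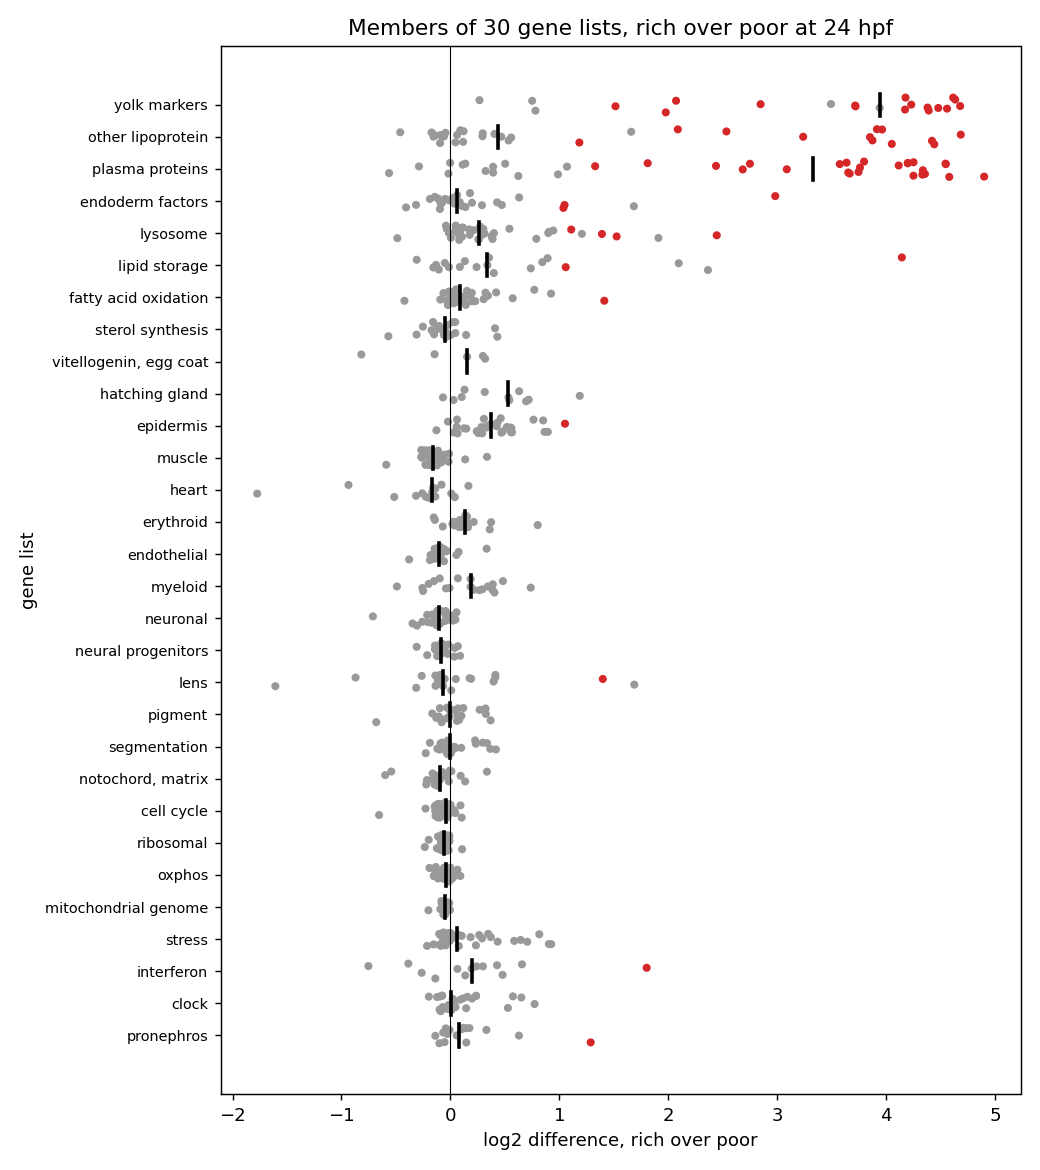
Log2 difference of rich over poor at 24 hpf (horizontal axis) for every tested member of the 30 gene lists (rows), 1 point per gene, with red for members set apart as higher, grey for members not set apart and a black bar at the median of each list. The medians of the yolk marker and plasma lists lie at 3.94 and 3.33, and those of the other 28 lists between -0.17 and 0.53.

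Most of the genes set apart lay outside the lists: 298 of the 365 higher genes were in none. Families were then counted by symbol, chosen after the values were seen. Since the contrast chose these families, nothing is read from their counts against the 1.5% of all genes set apart as higher. Of 35 tested complement genes, 20 were set apart as higher and 1, c1r, as lower. masp2, a protease that starts the lectin pathway, had 4.1 and 2.46 CPM in rich mutants and 1.71 and 2.4 in rich siblings, against 0.315 and 0 in poor mutants and 0.053 and 0 in poor siblings. The poor values of masp2 rest on few reads. cfb, a protease component of the alternative pathway, averaged 10.7 ± 4.21 CPM in rich libraries and 0.427 ± 0.234 in poor libraries, and c3a.6, one of several C3 genes, had a log2 difference of 4.89. C3 and factor H genes occur in near-identical copies, so reads may be split among them.

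Of 21 tested clotting genes, 13 were set apart as higher, among them f2, which encodes prothrombin, with 17.6 to 35.5 CPM in rich libraries and 0.708 to 2.99 in poor libraries. The fibrinogen chain gene fga had 74.5 and 43.2 CPM in rich mutants and 27.4 and 64.2 in rich siblings, against 0.734 and 1.09 in poor mutants and 6.89 and 1.22 in poor siblings. Of 20 serpins, 6 were set apart as higher. The largest difference of any named gene was in sod3a, an extracellular superoxide dismutase, which averaged 4.88 ± 1.35 CPM in rich libraries and 0.106 ± 0.114 in poor libraries, 47.4-fold; the poor values rest on few reads. ebi3, a cytokine subunit in mammals, had a log2 difference of 4.91 at 0.462 to 1.87 CPM in rich libraries.

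Genes of glucose and methyl-group metabolism were also among those set apart, 12 of 20 and 6 of 19 tested. pcxb, a pyruvate carboxylase gene that feeds glucose synthesis, had 86.4 and 62.6 CPM in rich mutants and 49.6 and 69.7 in rich siblings, against 1.68 and 1.85 in poor mutants and 5.67 and 4.12 in poor siblings. pck1, the committed enzyme of that route, and g6pca.1, which releases free glucose, had log2 differences of 3.07 and 3.60. bhmt, which transfers a methyl group from betaine to homocysteine, had 610 and 440 CPM in rich mutants and 201 and 432 in rich siblings, against 20.4 and 17.7 in poor mutants and 67 and 30.7 in poor siblings. The 6 genes whose log2 CPM over the 8 libraries, with the mean of each genotype removed, ran most like apoa1b were dmgdh, a dimethylglycine dehydrogenase, apoa2, apoa1a, f2, cst3, a cystatin, and ambp, a plasma protein precursor. Their Pearson r rounded to 0.998 or more, and across the 201 genes at least 4-fold higher (0.827% of all tested) the median r was 0.972 and the lowest 0.59. These points share the libraries and their depth, and the genes were chosen by the same contrast.

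Of 40 tested lysosomal genes, 4 were set apart as higher and 0 as lower, and the median log2 difference was 0.27. Over all genes the shares were 1.5% and 0.243%, and nothing is read from so small a count. ctsh, a cathepsin protease, averaged 49.3 ± 17.6 CPM in rich libraries and 9 ± 1.13 in poor libraries. npc2, which carries cholesterol out of lysosomes, averaged 128 ± 38.2 CPM in rich libraries and 43.9 ± 7.48 in poor libraries. The remaining 2, named because the count is small, were ctsc and ctsla. A further cathepsin outside the list, ctsll, had 107 and 49.7 CPM in rich mutants and 33.1 and 81.8 in rich siblings, against 0.839 and 0.282 in poor mutants and 19.4 and 0.692 in poor siblings. The targeted pla2g15, itself lysosomal, had 20.2 and 8.8 CPM in rich mutants and 11.8 and 23.7 in rich siblings, against 4.88 and 6.39 in poor mutants and 9.03 and 8.01 in poor siblings, so the sides overlapped across genotypes and not within them. Between genotypes pla2g15 also overlapped, with 28 to 46.2 CPM in mut48 and 39.8 to 62.9 in sib48, and 4.88 to 20.2 in mut24 and 8.01 to 23.7 in sib24. The other targeted gene, lipf, had 0.577 to 2.34 CPM in mut24 libraries and 8.84 to 25.2 in sib24 libraries, with no overlap between genotypes. By side, lipf had 2.34 and 1.59 CPM in rich mutants against 0.577 and 1.51 in poor mutants. In siblings it had 12 and 25.2 in rich against 9.85 and 8.84 in poor libraries. Its sides thus overlapped across genotypes and not within them, though narrowly in mutants. Both targeted genes were counted among the 40 lysosomal genes.

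In lipid droplet and fatty acid binding genes, 2 of 19 tested were set apart as higher, cideb, a droplet fusion protein that in mammals also acts in lipoprotein secretion, and mogat2, which makes diacylglycerol. mogat2 had 13.8 to 16.1 CPM in rich libraries and 5.8 to 8.03 in poor libraries. Of 33 fatty acid oxidation genes, acsl5 was the 1 set apart, with 5.34 to 9.6 CPM in rich libraries and 2.45 to 3.41 in poor libraries. None of 24 sterol synthesis genes was, and their median log2 difference was -0.05. Over all genes 1.5% were set apart as higher and 0.243% as lower. At those shares lists of this size would hold few or none, so nothing is read from these counts.

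Lists of other embryonic tissues are given beside the 1.5% of all genes set apart as higher and the 0.243% set apart as lower, shares at which a list of this size would hold few or none. In skeletal muscle 0 of 42 tested genes were, in heart 0 of 15, in neurons 0 of 30, in neural progenitors 0 of 25, in erythroid cells 0 of 22, in endothelium 0 of 20, in macrophages and neutrophils 0 of 20, in pigment cells 0 of 23 and in notochord and matrix 0 of 25. Their medians lay between -0.17 and 0.19. The same count was 0 of 41 for cell cycle genes, 0 of 76 for ribosomal proteins, 0 of 39 for nuclear-encoded respiratory subunits, 0 of 34 for stress genes, 0 of 32 for clock genes and 0 of 23 for segmentation genes. The ribosomal median of -0.06 was made of unlike values in the genotypes, 0.20 in mutants and -0.30 in siblings, as was the respiratory median of -0.04, with 0.18 in mutants and -0.26 in siblings. Lens, pronephros, epidermis and interferon lists had 1 gene each: crygmx, slc12a1, atp1b1b and mxb. In rich and poor libraries crygmx averaged 0.69 and 0.279 CPM, and mxb 0.61 and 0.173 CPM, so their poor values rest on few reads.

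Hatching gland and epidermis had the highest medians among these tissues, at 0.53 and 0.37, although 0 of 11 and 1 of 31 genes were set apart. The hatching enzyme gene he1.1 had 708 and 1242 CPM in rich mutants and 810 and 296 in rich siblings, against 465 and 720 in poor mutants and 44.9 and 649 in poor siblings, and the sides overlapped. The sum of the hatching gland list was 957 to 2330 CPM in rich libraries and 508 to 1620 in poor libraries, and that of the epidermis list 16400 to 26900 CPM in rich libraries and 11400 to 22000 in poor libraries. The part of these tissues in the contrast was not tested. Genes that the mother makes for the egg, vitellogenins and egg coat proteins, summed to 2.99 to 4.21 CPM in rich libraries and 3.01 to 5.29 in poor libraries.

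The 59 genes set apart as lower in rich libraries were mostly weak, since 48 had under 1 CPM in the poor libraries and 22 had a symbol. gbp3, a guanylate-binding protein, had 1.75 and 0.77 CPM in rich mutants and 0.466 and 1.25 in rich siblings, against 2.33 and 1.88 in poor mutants and 3.71 and 3.67 in poor siblings, a log2 difference of -1.42. cyp19a1a, an aromatase, averaged 0.691 ± 0.392 CPM in rich libraries and 1.65 ± 0.432 in poor libraries. The sides of both were close together, with 1.75 against 1.88 CPM at the nearest point in gbp3 and 1.05 against 1.21 CPM in cyp19a1a. Leaving out any 1 of the 8 libraries raised the count of lower genes to between 97 and 132, as a smaller set overlaps less by construction.

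The 2 genotypes share no library, so the contrast can be set side by side in each. At least 4-fold higher without overlap were 413 genes in mutants (1.7% of those tested) and 382 in siblings (1.57%), and 164 genes were in both, which is 39.7% of the mutant genes and 42.9% of the sibling genes. At least 2-fold higher were 926 genes in mutants (3.81%) and 1169 in siblings (4.81%), and 347 were in both, 37.5% and 29.7%. At least 2-fold lower were 624 genes in mutants (2.57%) and 466 in siblings (1.92%), and 54 were in both, 8.65% and 11.6%. With 2 libraries against 2 the sides fail to overlap more often than with 4 against 4. The differences were larger in mutants: the median over the yolk marker list was 5.24 in mutants and 2.92 in siblings. Sibling replicate 1 was the richest poor library and sibling replicate 2 the poorest rich one, and whether the genotypes differ in this contrast was not tested.

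**Figure D4:**
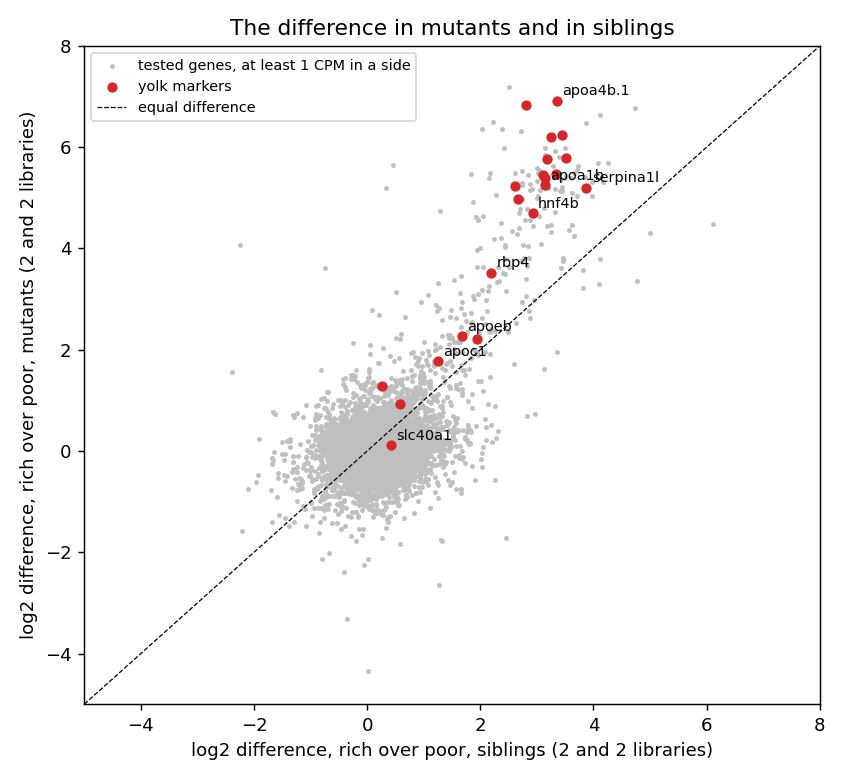
Log2 difference of rich over poor in mutants (vertical axis) against that in siblings (horizontal axis), 2 rich and 2 poor libraries in each, 1 point per tested gene of at least 1 CPM in a side, with yolk markers in red, all other genes in grey and a dashed line where both are equal. Most yolk markers lie above the line, with apoa1b at 5.25 in mutants and 3.15 in siblings, and 7 of the 18831 genes fall outside the axes.

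Ranges between the libraries of a group were taken at both ages. Over the 201 genes at least 4-fold higher in rich libraries, the median range between the highest and the lowest library, in log2, was 0.75 in mut48 and 0.86 in sib48, against 4.76 in mut24 and 3.82 in sib24. Over all tested genes it was 0.5 in mut48 and 0.43 in sib48, against 0.47 in mut24 and 0.48 in sib24. The wide 24 hpf range of the 201 genes was fixed by their choice, so nothing is read from it, whereas the 48 hpf libraries took no part in that choice. apoa1b had 434, 597, 640 and 580 CPM in mut48 libraries and 847, 615, 552 and 586 in sib48 libraries.

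The gap between rich and poor libraries in these 201 genes was likewise fixed by their choice, so nothing is read from it. The 48 hpf libraries took no part in the choice, and for these 201 genes the rich libraries lay near the 48 hpf level. With the gap fixed, the poor libraries then lay below that level by construction. The median log2 level over the 48 hpf mean of the same genotype was 0.35 and -0.17 in rich mutants and -0.45 and 0.24 in rich siblings, against -3.64 and -3.62 in poor mutants and -2.35 and -3.48 in poor siblings. Over the yolk markers the same medians were more spread on the rich side, at 1.15 and -0.1 in rich mutants and -0.8 and 0.19 in rich siblings. Poor mutants had -4.43 and -4.19, and poor siblings -2.37 and -4.27. Over all tested genes the same medians lay between -0.12 and -0.03 in the 24 hpf libraries. Single genes departed in both directions from the pattern of the 201 genes. rbp4 was below its 48 hpf level in every 24 hpf library, with 119 to 181 CPM in mut48 and 167 to 234 in sib48. ctsll and the bile salt transporter gene abcb11a were above it in every rich library: ctsll had 0.634 to 2.67 CPM and abcb11a 0.678 to 1.79 CPM over the 8 libraries of 48 hpf, against at least 33.1 and 6.11 CPM in the rich libraries.

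**Figure D5:**
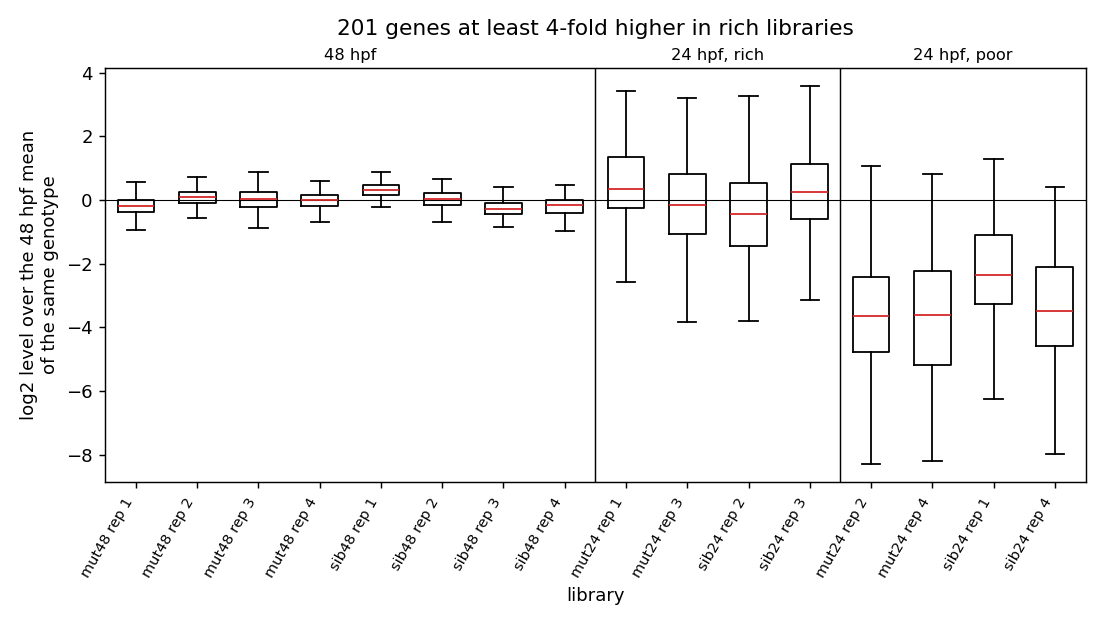
Log2 level over the 48 hpf mean of the same genotype (vertical axis) of the 201 genes at least 4-fold higher in rich libraries, as 1 box per library (horizontal axis) with the median in red, the quartiles as the box, whiskers to the last gene within 1.5 times the box height and outliers not drawn. Rich 24 hpf libraries have medians between -0.45 and 0.35, and poor ones between -3.64 and -2.35. The gap between rich and poor boxes was fixed by the choice of the genes.

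The comparison of ages does not use the split, since all 4 libraries of each 24 hpf group enter it. It was tested with the quasi-likelihood test of edgeR over all genes, with a threshold of 0.05 on the Benjamini-Hochberg adjusted p. It called 34.1% of genes as higher at 48 hpf and 30.4% as lower in mutants, and 34.1% and 29.2% in siblings. Of the 21 yolk markers, 3 were higher and 4 lower at 48 hpf in mutants, and 4 were higher and 1 lower in siblings. apoa1b averaged 563 ± 89.5 CPM in mut48 and 298 ± 339 in mut24 (SD, n = 4 each), a log2 difference of 0.92 with a standard error (SE) of 0.927 and an edgeR adjusted p of 0.401. In siblings it averaged 650 ± 134 CPM in sib48 and 234 ± 247 in sib24 (log2 1.47, SE 0.939, edgeR adjusted p = 0.182). The SD of the 24 hpf groups was about as large as their mean in both genotypes.

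rbp4 rose with age in both genotypes, by a log2 of 2.97 in mutants (SE 0.707, edgeR adjusted p = 0.0013) and 3.85 in siblings (SE 0.734, edgeR adjusted p = 0.000183). slc40a1, which did not follow the sides, rose by 0.66 in mutants (SE 0.103, edgeR adjusted p = 1.99e-05) and 0.32 in siblings (SE 0.103, edgeR adjusted p = 0.011). These 2 genes were called under every alternative in both genotypes.

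The other age calls of the list were lost when single libraries were left out. hnf4a was higher by 0.93 in mutants and 0.95 in siblings (edgeR adjusted p = 0.0259 and 0.0271), and gata6 had log2 differences of -0.73 in mutants and -0.65 in siblings (edgeR adjusted p = 0.02 and 0.0382). apoea was higher in sib48 than in sib24 by 2.48, with an edgeR adjusted p that rounds to 0.05. apoeb (log2 -1.65), fabp2 (-2.32) and apoa4b.2 (-5.06) were lower in mut48 than in mut24, with edgeR adjusted p of 0.00911, 0.0379 and 0.00898. Without mutant replicate 1 of 24 hpf, a rich library, 6 yolk markers were called higher and 0 lower in mutants. Without sibling replicate 3 of 24 hpf, also rich, 7 were called higher and 0 lower in siblings, and without its replicate 1 or 2 the higher calls fell to 2.

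Among genes outside the list, ctsll fell with age by a log2 of 5.59 in mutants (SE 1.42, edgeR adjusted p = 0.00217) and 4.12 in siblings (SE 1.29, edgeR adjusted p = 0.01). abcb11a fell in mutants (log2 -2.80, SE 0.98, edgeR adjusted p = 0.0187) and in siblings had a log2 of -2.27 (SE 1, edgeR adjusted p = 0.0566). pck1 rose in mutants, with 35.6 ± 11.5 CPM in mut48 and 2.72 ± 3 in mut24 (log2 3.74, SE 0.816, edgeR adjusted p = 0.000616), while in siblings its log2 of 1.58 had an edgeR adjusted p of 0.086. The poor 24 hpf libraries, apart from sibling replicate 1 for ctsll and, narrowly, sibling replicate 4 for abcb11a, did not lie above the 48 hpf range. ctsll had 0.634 to 1.12 CPM in mut48 against 0.839 and 0.282 in poor mutants, and 1.44 to 2.67 in sib48 against 19.4 and 0.692 in poor siblings. abcb11a had 1.09 to 1.79 CPM in mut48 against 0.157 and 0.826 in poor mutants, and 0.678 to 1.07 in sib48 against 0.848 and 1.2 in poor siblings. These 3 genes were chosen after their values were seen.

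By construction each genotype held 2 rich and 2 poor libraries, although the poor siblings had more apoa1b than the poor mutants. In the genotype comparison at 24 hpf, edgeR called 0.391% of genes as higher and 0.44% as lower in mut24 than in sib24, and 0 of the 21 yolk markers in either direction. At an unadjusted p under 0.05 the list also had 0 and 0, and DESeq2 called 0 and 0. The log2 of mut24 over sib24 ran from -1.78 in apoea (SE 1.09) to 1.09 in serpina1l (SE 0.972). In apoa1b it was 0.35 (SE 0.922), while slc40a1 had an SE of 0.103. With an SE this large in many members, the absence of calls does not show equal levels in the genotypes.

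At 48 hpf, how many yolk markers were called depended on whether the 24 hpf libraries shared the estimate of spread. In the fit of all 16 libraries, edgeR called 0 as higher and 1, apoa4b.2, as lower in mut48 than in sib48, beside 2.84% and 4.59% of all genes. At an unadjusted p under 0.05 the list had 1 higher and 3 lower, and DESeq2 also called 0 and 1. In a fit of the 8 libraries of 48 hpf alone, 2 were higher, serpina1 and serpina1l, and 9 were lower, beside 2.39% and 2.96% of all genes. apoa4b.1 shows the difference: its log2 of -1.49 was the same in both fits, but its SE was 0.148 with 48 hpf libraries alone (edgeR adjusted p = 0.000131) and 1.11 with all 16 (edgeR adjusted p = 0.481). The other 8 lower genes were apoa4b.2, apoea, apoeb, apoc1, mttp, rbp4, fabp1b.1 and fabp2. Levels were 46.8 to 74 CPM in mut48 and 136 to 201 in sib48 for apoa4b.1, and 8.64 to 11.9 in mut48 and 16.5 to 21.8 in sib48 for mttp, with no overlap in either gene.

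nr0b2a, which followed the sides at 24 hpf, was higher in mut48 than in sib48 in the fit of all libraries, with 26.3 ± 7.53 CPM in mut48 and 4.24 ± 1.58 in sib48 (SD, n = 4 each, log2 2.63, SE 0.755, edgeR adjusted p = 0.0427). cebpb was too, with 17.6 ± 3.91 CPM in mut48 and 7.95 ± 0.972 in sib48 (log2 1.15, SE 0.296, edgeR adjusted p = 0.0259). The interaction of genotype and age was called by edgeR for 0 yolk markers (1 higher and 1 lower at an unadjusted p under 0.05), beside 0.486% of all genes higher and 0.519% lower. Its SE was 1.3 in apoa1b and 1.55 in apoa4b.1, so the absence of calls does not show equal change with age in the genotypes.

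In units of 1e6 counts, the 16 libraries ran from 35.9 to 50.5, and the sides overlapped in depth, at 35.9 to 40.7 in rich and 39.4 to 50.5 in poor libraries. They also overlapped in genes detected with at least 10 counts, at 21812 to 22407 in rich and 21916 to 22784 in poor libraries, and in the share of mitochondrial counts, at 2.37 to 2.68% in rich and 2.31 to 2.63% in poor libraries. These ranges pool the genotypes. Within mutants the sides overlapped in all of these measures, and within siblings in none. Sibling depth was 39.2 and 39.1 in rich against 39.9 and 39.9 in poor libraries. Genes detected were 22219 and 22407 in rich siblings against 22019 and 21916 in poor ones. The mitochondrial share was 2.52 and 2.37% in rich siblings against 2.61 and 2.63% in poor ones. The part of these measures in the contrast was not tested. Developmental position was measured along the path from the mean of sib24 at 0 to the mean of sib48 at 1. Each sibling library was left out of its own group's mean when it was placed, whereas mutant libraries were placed against all sibling libraries. Sibling and mutant positions are therefore not on quite the same scale, and the sib24 and sib48 libraries averaged 0.0398 and 0.97. Rich libraries lay at 0.013 to 0.105 and poor ones at -0.03 to 0.018, and without the genes set apart rich ones lay at 0.004 to 0.086 and poor ones at -0.024 to 0.023, so the sides overlapped across genotypes. With the genes set apart included, both rich libraries of each genotype lay further along the path than both poor ones. Positions were 0.035 and 0.013 in rich mutants against -0.019 and 0.008 in poor mutants. In siblings they were 0.066 and 0.105 in rich against 0.018 and -0.03 in poor libraries. Without the genes set apart, the mutant sides overlapped, at 0.022 and 0.004 in rich against -0.006 and 0.021 in poor libraries. The sibling sides still did not, at 0.058 and 0.086 in rich against 0.023 and -0.024 in poor libraries. The part of developmental position in the contrast was not tested. The yolk marker list took 0.35 ± 0.0406% of counts in mut48 and 0.472 ± 0.109% in sib48 (SD, n = 4 each, exact two-sided permutation p = 0.0571), and 0.268 ± 0.277% in mut24 and 0.241 ± 0.235% in sib24 (exact two-sided permutation p = 0.914). Adjusted over the 14 such tests, these were 0.267 and 0.914, and the smallest p that 70 assignments allow is 0.0286.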

How the data were processed

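The authors deposited 1 table of raw counts per gene for 36109 genes, with 1 column per library and no pooling or normalisation. Per the submitters' processing notes, FastQC 0.12.1, Trim Galore 0.6.10, STAR 2.7.10b, featureCounts 2.0.6 and genome build GRCz11 were used. The annotation, the strandedness of counting and the treatment of multiply mapping reads are not stated in those sources. Per the labels' protocols, RNA was extracted with TRIzol, and libraries were built with the VAHTS Universal V8 kit.

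The filterByExpr function of edgeR 4.0.16 (R 4.3.3) kept 24300 genes and dropped 11809, and libraries were scaled by TMM. Rich over poor was fitted to the 8 libraries of 24 hpf with genotype as covariate and is a description without p-values. Age and genotype were tested by the quasi-likelihood test of edgeR on all 16 libraries, 1 mean per group, two-sided, with Benjamini-Hochberg adjustment over all tested genes. Library measures were compared by exact permutation over 70 assignments. The precision rests on the spread between 4 libraries a group. The fits were also run on simulated data. For age and genotype the simulated libraries held no rich and poor sides, so nothing is read from them for genes that followed the sides.

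The libraries, the 30 gene lists (842 of 860 entries matched, 15 by synonym) and the rule for naming genes were chosen with earlier results of these data known. The rule named apoa1b, the yolk markers, the 12 largest and 12 smallest differences with a symbol, at least 1 CPM in the higher side and no overlap, up to 2 genes for each other list, and the 6 genes most like apoa1b. Other genes, such as cebpa, pcxb, pck1, g6pca.1, bhmt, fga, dgat2, ctsll and abcb11a, were chosen after their values were seen. Alternatives were other scalings and filters, DESeq2 1.42.0, other fold minimums, the replicate number as a block, each genotype alone, a fit of the compared groups alone, and leaving out each library. A planned search of promoters for motifs was not run, as no promoter sequence was used here.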

Additional observations from a re-analysis of the deposited data

Results flagged for a closer look

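In 336 groups of 4 libraries, 12 had a library far from the other 3 by Dixon's criterion, which chance meets in about 1 in 20 groups. Mutant replicate 1 of 24 hpf, a rich library, held 4 of them. It had 145 CPM of apoa4b.1 where the other mut24 libraries had 0.645 to 22.4, 32.9 CPM of apoa4b.2 where they had 0 to 4.9, and 20.6 CPM of apoea where they had 0.131 to 1.64, and so was the highest mutant library for each of these neighbouring apolipoprotein genes. It had 0.176 CPM of znf1097, a zinc finger gene, where the others had 0.77 to 0.847.

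At 48 hpf, mutant replicate 1 had 86.8 CPM of slc40a1 where the other mut48 libraries had 75 to 76.9, and 72 CPM of serpina1 where they had 108 to 115. Mutant replicate 3 had 83.4 CPM of cfb where the others had 26.9 to 30.9. Mutant replicate 4 had 2870 CPM of hspa8, a constitutive chaperone, where the others had 3300 to 3380. Sibling replicate 1 had 6.59 CPM of nr0b2a where the other sib48 libraries had 3.28 to 3.74, and sibling replicate 2 had 9.4 CPM of cebpb where they had 7.36 to 7.63. Sibling replicate 4 had 22844 genes detected where the others had 23350 to 23357. At 24 hpf, sibling replicate 2 had 112 CPM of cry1ba, a clock gene, where the other sib24 libraries had 104 to 105.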

How the results depend on the processing

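The count of genes set apart as higher (365) was 201 at a 4-fold minimum, 926 in mutants alone and 1169 in siblings alone, and 407 to 502 with 1 library left out, which relaxes the rule on overlap by construction. The count set apart as lower (59) was 103 with no filter, 21 with at least 1 CPM in at least 4 libraries, 99 at a 1.5-fold minimum, 13 at a 4-fold minimum, 624 in mutants alone, 466 in siblings alone and 97 to 132 with 1 library left out. The yolk markers called by age ran, with 1 library left out, from 2 to 6 higher and 0 to 5 lower in mutants and from 2 to 7 higher and 0 to 1 lower in siblings. In mutants the lower calls were 0 without mut24 replicate 1 and 2 without mut24 replicate 3, mut48 replicate 1 or mut48 replicate 4. In siblings the single lower call was lost without sib24 replicate 2 or 3 or sib48 replicate 2, 3 or 4, and the higher calls were 2 without sib24 replicate 1 or 2 or sib48 replicate 1. At 48 hpf the lower genotype calls of the list were 9, beside 2 higher, in the 2 compared groups alone, and 0 to 1 with 1 library left out, at 0 without mut48 replicate 1 or 2. The share of counts from the yolk markers, 0.0263 percentage points higher in mut24 than in sib24, turned to -0.0254 without sib24 replicate 1, -0.0394 without sib24 replicate 4, -0.0852 without mut24 replicate 1 and -0.0145 without mut24 replicate 3, and ran from -0.0852 to 0.132 over all 8. At 48 hpf the share without apoa1b differed by -0.115 (exact permutation p = 0.0286, 0.267 adjusted over 14 tests). Beyond what each setting's construction explains, the cause was not tested. With the replicate block, 358 genes were set apart as higher and 60 as lower, 336 and 49 of them shared with the counts above, and 2 yolk markers were lower in mut48 than in sib48. The deviations of same-numbered libraries correlated at -0.107 to 0.203. Such correlations cannot decide whether same-numbered libraries shared a clutch or batch, which the sources used here do not give. Values of single genes were compared as pairs of a gene and an alternative, so 1 gene can count more than once. In 37 pairs an age or genotype call was lost, and in 114 a difference of rich over poor moved by more than the replicate SD. In 1644 pairs the result stayed the same, and 0 of the called or set apart genes reversed. The promoter motif search was not run, and the fit of genotype with the side as covariate is not reported, since the side was made from apoa1b.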
